A study of Mus musculus with 20 samples.

Results

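The 58 genes described here encode the machinery that condenses, aligns and separates chromosomes and then divides the cell. They were taken as a fixed list of symbols, matched through GENCODE M21 to the Ensembl identifiers of the count files, and all 58 were found among 46603 identifiers. All 58 also passed the filter on low counts, which left 14661 genes for testing. The genes were sorted into 10 roles, from chromosome structure to mitotic exit. Their mRNA was read by bulk poly(A) RNA sequencing of mouse liver.

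The 20 libraries came from male mice aged 2 months, in 4 groups of 5. Wild-type (WT) mice were C57BL/6J animals from The Jackson Laboratory, and the labels name no Cre or loxP allele for them. EedHepKO mice (KO in some group names) carried Albumin:Cre and an Eed allele whose exons 3 and 6 are flanked by loxP. Albumin:Cre is active in hepatocytes, and whether other liver cells keep Eed was not measured here. Eed encodes a core subunit of polycomb repressive complex 2. Both genotypes ate standard chow. Baseline RNA is that of the resected lobes 1, 2 and 3. The operation, partial hepatectomy (PHx), removes most of the liver, and the remainder regrows. Libraries after PHx hold RNA of the remaining lobes (4, 5 and 6) at 30 h (1 mouse per genotype), 40 h (2 per genotype) or 48 h (2 per genotype). PHx therefore cannot be told apart from lobe, nor genotype from colony of origin. For 9 of the 10 mice the labels tie the library after PHx to a baseline library of the same animal. The label of WT baseline replicate 1 holds no mouse number.

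Hepatocytes of the adult liver are mostly out of the cell cycle and re-enter it after resection. As background, a cell commits to mitosis when cyclin A and cyclin B activate the kinase Cdk1. Kinetochores built on centromeres then bind spindle microtubules, the spindle checkpoint holds the cell until all chromosomes are attached, and the anaphase-promoting complex with its activator Cdc20 releases the sister chromatids. Many of the genes are transcribed mainly late in the cell cycle, and their promoters are known for 2 short elements, the cell cycle genes homology region (CHR) and the CCAAT box bound by NF-Y.

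The promoters of 49 of the 58 genes were in the RefSeq table used here (GRCm38.p6, 250 bases before to 50 after the start). A CHR match, TTTGAA or TTCGAA on either strand, was present for 38 of the 49 genes (77.6%), against 21.7% of the 27025 genes in the table. In 34 of these 38 genes a match began within 50 bases of the start. A CCAAT match on either strand was present for 75.5% of the genes, against 41.1% in the table, 63.6% of 33 DNA replication genes and 57.0% of 86 other mitotic genes. CHR matches were found for 43.0% of those other mitotic genes. The members held both motifs together in 69.4% of promoters, against 8.6% in the table. The E2F motif TTTNGCGC was found in 3 of 49 genes (6.1%), against 1.6% in the table and 33.3% of the replication genes. CHR matches were found for 18.2% of those replication genes. A match is a description of the letters and not evidence of binding. The following 6 promoters are printed 5′ to 3′ on the gene's strand, from 250 bases before to 30 after the start, with CHR and CCAAT matches in capitals. Cdc20, Ccnb2, Cdk1 and Racgap1 stand for the genes that moved with PHx or genotype, and Ccnf and Pttg1 for those that did not follow them.
Cdc20, chr4:118437314-118437593, minus strand: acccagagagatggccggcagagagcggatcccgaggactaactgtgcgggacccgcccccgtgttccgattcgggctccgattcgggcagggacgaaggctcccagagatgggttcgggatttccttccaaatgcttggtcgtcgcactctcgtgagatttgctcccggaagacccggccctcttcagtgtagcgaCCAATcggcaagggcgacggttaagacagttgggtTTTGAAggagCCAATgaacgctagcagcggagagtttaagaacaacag
Ccnb2, chr9:70421525-70421804, minus strand: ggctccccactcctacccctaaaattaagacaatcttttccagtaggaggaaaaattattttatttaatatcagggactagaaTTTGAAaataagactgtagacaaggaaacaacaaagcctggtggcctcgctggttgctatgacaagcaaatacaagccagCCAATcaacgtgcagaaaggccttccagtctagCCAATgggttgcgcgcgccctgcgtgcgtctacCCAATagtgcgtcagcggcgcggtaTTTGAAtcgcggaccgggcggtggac
Cdk1, chr10:69352883-69353162, minus strand: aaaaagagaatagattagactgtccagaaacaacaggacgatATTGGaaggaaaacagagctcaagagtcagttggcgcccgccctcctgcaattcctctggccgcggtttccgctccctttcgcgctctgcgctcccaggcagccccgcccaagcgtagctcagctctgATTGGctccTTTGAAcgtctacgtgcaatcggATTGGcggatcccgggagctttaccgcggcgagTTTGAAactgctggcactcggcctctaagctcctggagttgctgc
Racgap1, chr15:99651627-99651906, minus strand: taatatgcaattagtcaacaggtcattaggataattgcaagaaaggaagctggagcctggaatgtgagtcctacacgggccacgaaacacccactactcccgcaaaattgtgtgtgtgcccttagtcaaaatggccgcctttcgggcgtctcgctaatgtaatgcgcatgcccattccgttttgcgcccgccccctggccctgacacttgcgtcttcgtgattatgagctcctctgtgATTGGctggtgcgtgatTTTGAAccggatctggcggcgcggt
Ccnf, chr17:24251380-24251659, minus strand: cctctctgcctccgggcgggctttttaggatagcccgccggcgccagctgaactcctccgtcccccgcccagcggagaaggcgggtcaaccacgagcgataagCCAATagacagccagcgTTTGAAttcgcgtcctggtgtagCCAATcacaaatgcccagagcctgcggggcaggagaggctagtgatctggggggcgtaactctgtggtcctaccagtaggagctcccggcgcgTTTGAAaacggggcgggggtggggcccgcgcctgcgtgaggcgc
Pttg1, chr11:43425952-43426231, minus strand: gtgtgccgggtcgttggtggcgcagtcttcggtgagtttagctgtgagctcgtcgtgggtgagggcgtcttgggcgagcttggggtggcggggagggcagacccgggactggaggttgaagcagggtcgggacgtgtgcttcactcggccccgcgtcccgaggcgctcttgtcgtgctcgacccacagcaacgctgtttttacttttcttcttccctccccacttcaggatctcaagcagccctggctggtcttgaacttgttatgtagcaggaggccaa

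Both motifs stand in the promoter of Ccnf as well as in those of Cdc20, Ccnb2, Cdk1 and Racgap1, while that of Pttg1 holds neither. Promoters of Aurkb, Dlgap5, Ccna2, Kif20a, Cdc25c, Tpx2, Incenp, Smc4 and Spc24 were not analysed here.

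Levels are given as CPM (counts per 1000000 of each library's TMM-scaled total), and total counts ranged from 21634890 to 30461351 per library. Differences between groups come from 1 edgeR quasi-likelihood fit over all 20 libraries (two-sided, Benjamini-Hochberg adjusted over 14661 genes), and a gene is called when its adjusted p lies under 0.05. Shares of all genes called stand beside the main counts but not beside most counts from other settings. Eed itself lay between 14.6 and 23.2 CPM in the 10 WT libraries and between 2.75 and 7.52 CPM in the 10 EedHepKO libraries. The hepatocyte markers (9 genes) summed to at least 42809 CPM in every library. The following 2 libraries stood apart on the 58 genes: WT replicate 5 at 48 h and EedHepKO replicate 10 at 40 h. The 58 genes summed to 4853 CPM in the first and 2667 CPM in the second, and results that rest on them are given with and without them. Nothing in the labels says that the 5 mice of a group were handled on separate days. The p-values of this edgeR fit measure the spread between these animals, which after PHx also holds the spread between 30 h, 40 h and 48 h. The fit does not use the pairing of libraries by mouse.

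**Figure D1:**
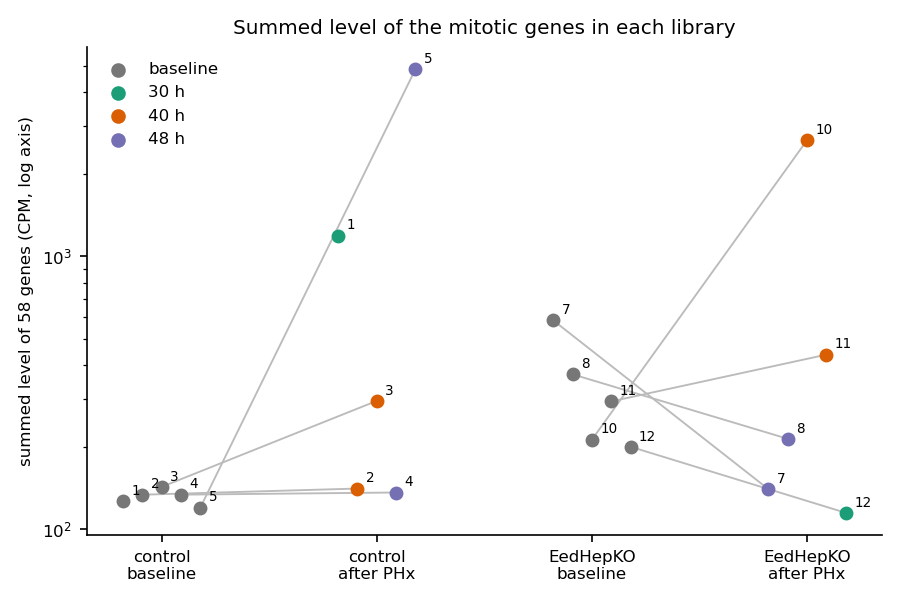
Summed level of the 58 genes in each library (CPM, log axis), by group, coloured by time after PHx and numbered by replicate; grey lines join libraries of the same mouse. WT baseline libraries sat between 120.0 and 142.9 CPM and EedHepKO baseline libraries between 200.5 and 582.9 CPM, and after PHx both genotypes spread over more than the range of their baselines.

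In the resting WT liver most of these genes were barely transcribed. Summed over the 58 genes, the 5 baseline libraries held 126.7, 133.8, 142.9, 133.9 and 120.0 CPM. Between 49.2% and 68.0% of that sum came from 3 genes, Ccnf (the F-box cyclin F of an SCF ubiquitin ligase), Bub3 (a checkpoint protein with roles outside mitosis) and Pttg1 (securin, the inhibitor of separase). These were the only 3 members at 10 CPM or more in all 5 WT baseline libraries. A further 37 members stayed under 1 CPM in each of them, and between 3 and 7 members per library had no read.

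The resting EedHepKO liver held more mRNA of most of the 58 genes. The summed level was 582.9, 369.6, 213.0, 294.1 and 200.5 CPM in replicates 7, 8, 10, 11 and 12, above every WT baseline library. Without Ccnf, Bub3 and Pttg1 the sums ran from 136.9 to 532.5 CPM in EedHepKO and from 42.8 to 64.4 CPM in WT. For 43 of the 58 genes all 5 EedHepKO libraries lay above all 5 WT libraries, where 15.6% of the genes tested did so. All 58 genes were detected in every EedHepKO baseline library. The median log2 fold change over the 58 was 3.61, and 56 of the 58 values were positive, beside a median of -0.03 over all genes tested. A bulk sample cannot tell more cells with this mRNA from more mRNA per cell.

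By the edgeR test 5 of the 58 genes were called higher and 0 lower, at a background of 11.1% of all genes called higher, and 40 of the 58 had an unadjusted p under 0.05. The 5 were Ckap2 (log2 fold change 5.25 ± 1.47 SE, adjusted p = 0.019), a spindle microtubule protein, Plk1 (log2 fold change 5.92 ± 1.86 SE, adjusted p = 0.0357), Ccna2, which encodes cyclin A2 (log2 fold change 5.00 ± 1.60 SE, adjusted p = 0.038), Racgap1 (log2 fold change 4.79 ± 1.60 SE, adjusted p = 0.0459) of the central spindle, and Ccnb1 (log2 fold change 5.65 ± 1.89 SE, adjusted p = 0.0474). The share called was close to the background. This fit shares its estimate of the spread with the libraries after PHx. With only the 10 baseline libraries in the fit, 52 of the 58 genes passed the filter. Of these, 45 were called higher and 2 (Ccnf and Pttg1) lower, where 21.4% of all genes were called higher. Only 14 members had 10 or more counts in all 5 WT baseline libraries, against 51 in all 5 EedHepKO ones. A further limit is that 23 stayed under 10 counts in every WT baseline library. Members that low in WT could pass only through the EedHepKO libraries, where they were higher, so the 45 are no separate support. With limma voom in place of edgeR no member was called (0 of 58, with 6 at an unadjusted p under 0.05), with or without the mouse as a random block. In edgeR, leaving out any one of the 10 baseline libraries left 0 to 3.

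Cdk1 and its cyclins drive entry into mitosis. Ccnb2, cyclin B2, had the highest mean CPM per kb of exon of this role over all 20 libraries, although in WT at baseline Ccnf (4.11 CPM per kb) and Cdca3 (0.350) lay above it (0.169). It stood at 0.39, 0.15, 0.154, 0.504 and 0.0917 CPM in WT baseline replicates 1 to 5 and at 8.2, 6.8, 5.14, 4.49 and 4.13 CPM in EedHepKO replicates 7, 8, 10, 11 and 12, so the groups did not overlap. Ccnb1, cyclin B1, was read at 0.195, 0.10, 0.154, 0.0459 and 0.0459 CPM in WT and at 9.23, 5.96, 4.14, 5.28 and 2.39 CPM in EedHepKO. Its 10 reads in all 5 WT libraries together make the denominator of its fold change imprecise. Cdk1, the kinase itself, had 0.52, 0.70, 1.34, 0.917 and 0.275 CPM in WT and 16.5, 8.87, 6.69, 10.1 and 5.45 CPM in EedHepKO (log2 fold change 3.66 ± 1.29 SE, adjusted p = 0.0584). Of the 8 genes of this role, 2 were called, and 7 had EedHepKO libraries wholly above WT. Ccnf was the exception, with 22.2, 30.7, 40.2, 39.9 and 27.3 CPM in WT and 12.1, 13.9, 8.17, 17.8 and 14.4 CPM in EedHepKO, where every EedHepKO library lay below every WT library (log2 fold change -1.27 ± 0.51 SE, adjusted p = 0.0948).

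Plk1, the polo-like kinase that acts from mitotic entry to cytokinesis, had the highest mean CPM per kb of the mitotic kinases over all 20 libraries (4.27, beside 4.17 for Aurka), although in WT at baseline Nek2 (0.491) and Aurka (0.143) lay above it (0.0331). Its WT values were 0.13, 0.050, 0, 0.0917 and 0.0917 CPM, from 7 reads in all, and its EedHepKO values 9.96, 3.17, 2.93, 5.48 and 1.46 CPM. All 4 kinases (Plk1, Aurka, Nek2 and Melk) were separated between the groups, with a median log2 fold change of 3.90. In the chromosomal passenger complex, which corrects faulty attachments, Birc5 (survivin) had 0.39, 0.35, 0.154, 0.367 and 0.367 CPM in WT and 8.03, 5.11, 3.9, 4.94 and 2.68 CPM in EedHepKO. Here 3 of 4 genes were separated, and Incenp, the scaffold of the complex, was the one that overlapped.

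Among the spindle checkpoint genes Bub3 had the highest mean level per kb over all 20 libraries and differed little, at 19.4, 25.7, 25.4, 26.2 and 22.2 CPM in WT and 23, 26.8, 24.6, 29.2 and 26.4 CPM in EedHepKO (log2 fold change 0.13 ± 0.25 SE, adjusted p = 0.769). Ttk, the kinase Mps1 that starts checkpoint signalling, had 3 reads in all WT baseline libraries together and 222 in EedHepKO. That is a ratio of 56.8, with a 95% interval of 19.2 to 278 that covers counting error only (log2 fold change 5.54 ± 2.03 SE, adjusted p = 0.0682). At the kinetochore, Spc24, a subunit of the Ndc80 complex, stood at 11.5, 12.9, 10.2, 6.47 and 9.86 CPM in WT and 14.6, 10.1, 15.8, 15.3 and 17.4 CPM in EedHepKO, and the groups overlapped. Of the 9 kinetochore and centromere genes 5 were separated, and none of the 9 was called by edgeR in the 20-library fit, although their median log2 fold change was 3.53.

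Motors and microtubule-binding proteins build and move the spindle. Kif20a, the kinesin of the central spindle, had 0.52, 0.25, 0.515, 0.596 and 0.596 CPM in WT and 18.8, 9.25, 5.24, 9.97 and 4.32 CPM in EedHepKO, and 5 of 7 kinesins were separated. Ckap2l, a spindle pole and microtubule protein, had 0.065, 0.15, 0, 0.138 and 0.321 CPM in WT and 11, 6.09, 2.45, 3.2 and 1.88 CPM in EedHepKO. All 7 microtubule-binding genes (Tpx2, Hmmr, Nusap1, Prc1, Dlgap5, Ckap2 and Ckap2l) were separated, and their median log2 fold change of 4.62 was the highest of the 10 roles. All 3 cytokinesis genes were separated too. Ect2, the exchange factor that activates RhoA at the cleavage furrow, had 3.06, 1.35, 1.08, 1.42 and 2.43 CPM in WT and 14, 6.42, 4.1, 6.11 and 3.29 CPM in EedHepKO.

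Cdc20, the anaphase-promoting complex activator, had the highest mean CPM per kb of the 58 genes over all 20 libraries, at 12.5, a mean that includes WT replicate 5 after PHx. At baseline Pttg1 lay above it per kb, with means of 12.4 against 0.249 in WT and 8.39 against 7.28 in EedHepKO. At baseline it had 0.78, 0.50, 0.309, 0.459 and 0.275 CPM in WT and 23.9, 9.76, 9.28, 15.5 and 9.53 CPM in EedHepKO, and no values overlapped (log2 fold change 4.89 ± 1.70 SE, adjusted p = 0.0549). Pttg1, by contrast, had 20.7, 27, 28.7, 25 and 22.5 CPM in WT and 15.2, 21.3, 10.7, 13.9 and 22.8 CPM in EedHepKO (log2 fold change -0.56 ± 0.24 SE, adjusted p = 0.119). Mki67, the proliferation marker that coats mitotic chromosomes, stood at 1.76, 0.60, 0.823, 0.826 and 0.505 CPM in WT and 34.6, 26.5, 3.38, 4.28 and 2.49 CPM in EedHepKO. Replicates 7 and 8 were far above the other 3 EedHepKO mice, but all 5 lay above WT. Smc4, a condensin ATPase subunit, had 9.95, 6.55, 8.18, 5.78 and 7.66 CPM in WT and 22.1, 16.6, 5.28, 4.07 and 3.0 CPM in EedHepKO, with replicates 7 and 8 above and replicates 10, 11 and 12 below every WT library.

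**Figure D2:**
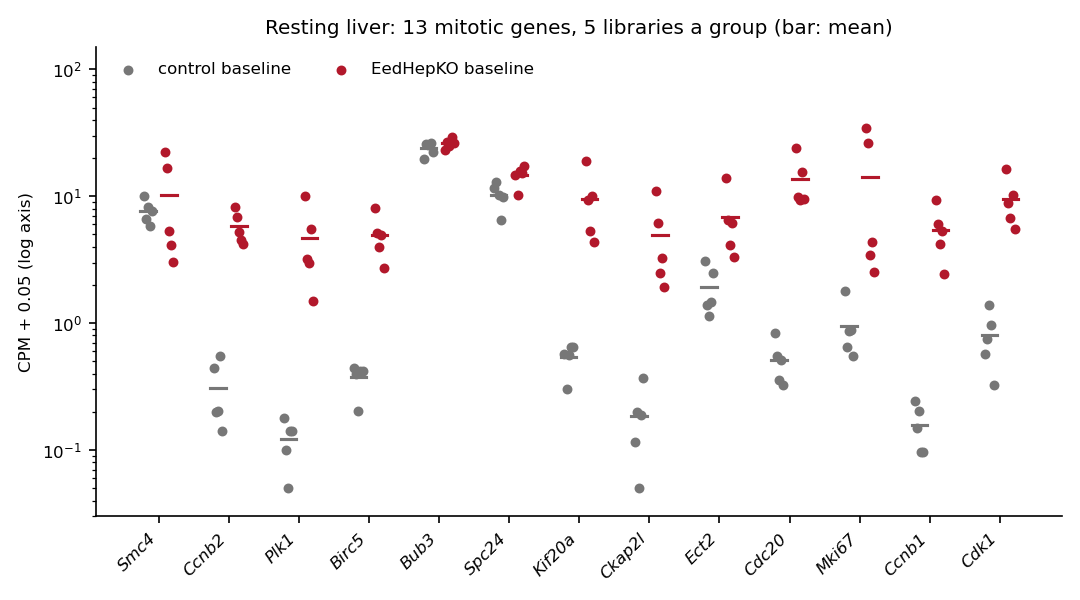
Level of 13 genes in the baseline libraries (CPM + 0.05, log axis), 5 points per group and a bar at the mean: the gene of each role with the highest CPM per kb averaged over all 20 libraries (not at baseline alone), and Mki67, Ccnb1 and Cdk1. Groups are apart for 10 of the 13 and overlap for Smc4, Bub3 and Spc24.

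Marker levels of other cells in the same libraries are given here, where 11.1% of all genes were called higher and 4.89% lower. The summed level of 10 macrophage markers was 445 to 564 CPM in EedHepKO baseline libraries and 182 to 310 CPM in WT, with 4 of the 10 called higher and none at 0 in any baseline library. Summed stellate cell markers ran from 454 to 598 CPM against 167 to 274 CPM, with 7 of 10 called higher and none at 0. The 8 cholangiocyte markers summed to 73.9 to 384 CPM against 34.1 to 79.1 CPM, with 0 to 2 of them at 0 per library and 1 called higher. Hepatocyte markers summed to 81288 to 109918 CPM in EedHepKO and 129437 to 151081 CPM in WT, with 3 of 9 called lower. Lymphocyte markers summed to 5.7 to 9.7 CPM against 4.0 to 7.9 CPM, and neutrophil markers to 3.8 to 11.4 CPM against 1.1 to 1.8 CPM, with 2 to 5 of the 8 neutrophil markers at 0. Of the 5 neutrophil markers tested 2 were called higher, with a median log2 fold change of 2.50, and of the 6 lymphocyte markers tested none was called. Endothelial markers summed to 307 to 384 CPM against 259 to 297 CPM, with 1 of 10 called higher, and erythroid and progenitor markers to 151 to 253 CPM against 298 to 435 CPM, with 1 called lower. The part of these cells in the mitotic mRNA was not tested.

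Replication and licensing genes, which act in S phase, had smaller fold changes at baseline. The 42 replication genes summed to 367.7, 382.2, 257.1, 286.2 and 299.9 CPM in EedHepKO replicates 7, 8, 10, 11 and 12, and to 292.3 to 398.1 CPM in WT. Their median log2 fold change was 0.59, with 33 of the 42 values positive, beside 3.61 and 56 of 58 for the mitotic genes. None was called higher and 1 was called lower. The ratio of the mitotic to the replication sum was 0.669 to 1.59 in the EedHepKO baseline libraries and 0.359 to 0.458 in WT, so the groups did not overlap. Among 103 further mitotic genes, 8 were called higher (7.77%, against 11.1% of all genes) and 2 lower (1.94%, against 4.89%), so neither share was above the background. The further spindle and cytokinesis genes held 5 of the 8 (of 37), with the highest log2 fold changes at Depdc1a (8.32) and Psrc1 (6.58). The further kinetochore genes held 3 (of 34), among them Ska3 (5.30) and Sgo2a (4.87). None of the 17 anaphase-promoting complex genes was called, and both genes called lower, Wapl (-0.95) and Pds5a (-0.74), regulate cohesin.

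After PHx the WT livers went in different directions. The 58 genes summed to 1191 CPM at 30 h, to 141.0 and 295.3 CPM at 40 h, and to 136.3 and 4853 CPM at 48 h. Against the baseline library of the same mouse, 57 of 58 genes were higher in replicate 5 (48 h) and 55 in replicate 3 (40 h), but 22 in replicate 2 (40 h) and 23 in replicate 4 (48 h). The last pair lay within or near the WT baseline range, with 18 genes each below every WT baseline library and 11 and 13 above. These counts of single libraries have no share over all genes beside them. Replicate 5 at 48 h held the highest level of all 20 libraries for 50 of the 58 genes. At the same 48 h, replicate 4 had 7 genes with no read.

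With the times pooled, 53 of the 58 genes were called higher after PHx than at baseline in WT and 0 lower, at a background of 11.4%. The median log2 fold change was 5.90, and 2.96 with the mouse as a replicate block over the 9 paired mice. The 5 genes not called were Pttg1 (log2 fold change -0.63 ± 0.24 SE, adjusted p = 0.0691), Ccnf (log2 fold change 0.46 ± 0.50 SE, adjusted p = 0.553), Bub3 (log2 fold change 0.64 ± 0.25 SE, adjusted p = 0.0751), Spc24 (0.97, and -0.55 with the replicate block) and Spc25 (2.70). The highest values were those of Ccnb1 (log2 fold change 8.13 ± 1.98 SE, adjusted p = 0.00784), Ttk (log2 fold change 8.06 ± 2.07 SE, adjusted p = 0.0103) and Plk1 (log2 fold change 7.97 ± 1.92 SE, adjusted p = 0.00735). For Ttk, whose WT baseline held 3 reads, the pooled ratio was 326 (95% counting interval 111 to 1585). In this fit every role held called genes. All chromosome structure genes (7 of 7), kinases (4 of 4), passenger genes (4 of 4), kinesins (7 of 7), microtubule-binding genes (7 of 7) and cytokinesis genes (3 of 3) were called. So were 7 of 8 cyclin and entry genes, 4 of 5 checkpoint genes, 7 of 9 kinetochore genes and 3 of 4 exit genes. These means rest on 3 of the 5 mice: only 5 genes (Ncapd2, Aurka, Incenp, Mad2l1 and Ckap2) had all 5 libraries after PHx above all 5 baseline libraries, where 6.91% of genes tested did. Pttg1 was lower in all 5. Without WT replicate 5 after PHx 32 genes were called. With the mouse as a replicate block over the 9 paired mice 1 was called (Dlgap5), so the other roles held none. The same 18 libraries without the block gave 43. By promoter, 31 of the 34 genes with both CHR and CCAAT matches were called higher, all 7 with 1 of them, and 7 of the 8 with neither.

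Markers of other cells are given for the same contrasts, where 11.4% of all genes were called higher and 8.68% lower in WT, and 17.5% and 12.1% in EedHepKO. In WT 3 of the 5 neutrophil markers tested were called higher (median log2 fold change 5.70) and 5 of the 6 lymphocyte markers lower (median -3.12). In EedHepKO 1 neutrophil marker was called higher (median 2.52), 5 of 6 lymphocyte markers lower (median -2.45) and 4 of 7 cholangiocyte markers higher (median 2.59). Hepatocyte markers were called lower for 2 of 9 in each genotype, and macrophage markers higher for 2 and lower for 1 of 10 in WT and higher for 1 and lower for 3 in EedHepKO. Of the endothelial markers 1 of 10 was called lower in WT, and 4 lower and 1 higher in EedHepKO, and of the stellate markers 0 in WT and 3 of 10 lower in EedHepKO. Of 7 erythroid and progenitor markers 1 was called lower in each genotype. The neutrophil sum after PHx was 3.40, 24.1, 46.4, 28.1 and 1.92 CPM in WT replicates 1 to 5, and 83.5, 23.9, 6.10, 4.11 and 13.3 CPM in EedHepKO replicates 7, 8, 10, 11 and 12. Between the genotypes after PHx, 5 of 7 cholangiocyte, 4 of 10 stellate and 3 of 10 macrophage markers were called higher in EedHepKO (16% of all genes) and 2 of 9 hepatocyte markers lower (8.2% of all genes). The part of any of these cells in the mitotic values was not tested.

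The values of single genes followed this pattern. Cdc20 in WT stood at 23.2 at 30 h, 0.174 and 3.84 at 40 h, and 0.0709 and 254 at 48 h CPM, Kif20a at 16.4 at 30 h, 0.609 and 4.41 at 40 h, and 0.248 and 217 at 48 h CPM. Mki67 had 82.3 at 30 h, 0.217 and 14.2 at 40 h, and 0.284 and 328 at 48 h CPM. In all 3 the 40 h and 48 h mice split into one library near or below baseline and one above it. Ccnb1 had 9.03 at 30 h, 0 and 2.66 at 40 h, and 0.0355 and 139 at 48 h CPM, Ccnb2 7.24 at 30 h, 0.087 and 2.32 at 40 h, and 0.177 and 126 at 48 h CPM. Cdk1 had 41.2 at 30 h, 0.609 and 9.17 at 40 h, and 0.709 and 128 at 48 h CPM. Plk1 had 12.8 at 30 h, 0.304 and 3.01 at 40 h, and 0.0355 and 78.9 at 48 h CPM. All 4 genes were lowest at 40 h in replicate 2 or at 48 h in replicate 4. Birc5 had 21 at 30 h, 0 and 3.46 at 40 h, and 0.0709 and 79.7 at 48 h CPM, Ckap2l 21.3 at 30 h, 0.087 and 3.58 at 40 h, and 0.0355 and 110 at 48 h CPM. Ect2 had 30 at 30 h, 1.48 and 4.34 at 40 h, and 3.16 and 134 at 48 h CPM. Smc4 had 48.8 at 30 h, 9.96 and 11 at 40 h, and 8.79 and 155 at 48 h CPM. Bub3, in contrast, varied less, at 34.4 at 30 h, 25.7 and 26.6 at 40 h, and 37.6 and 60.9 at 48 h CPM. Spc24 was under its WT baseline minimum of 6.47 CPM in 2 libraries and above its maximum in 2 others, at 35.1 at 30 h, 2.96 and 9.85 at 40 h, and 1.49 and 50.5 at 48 h CPM.

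**Figure D3:**
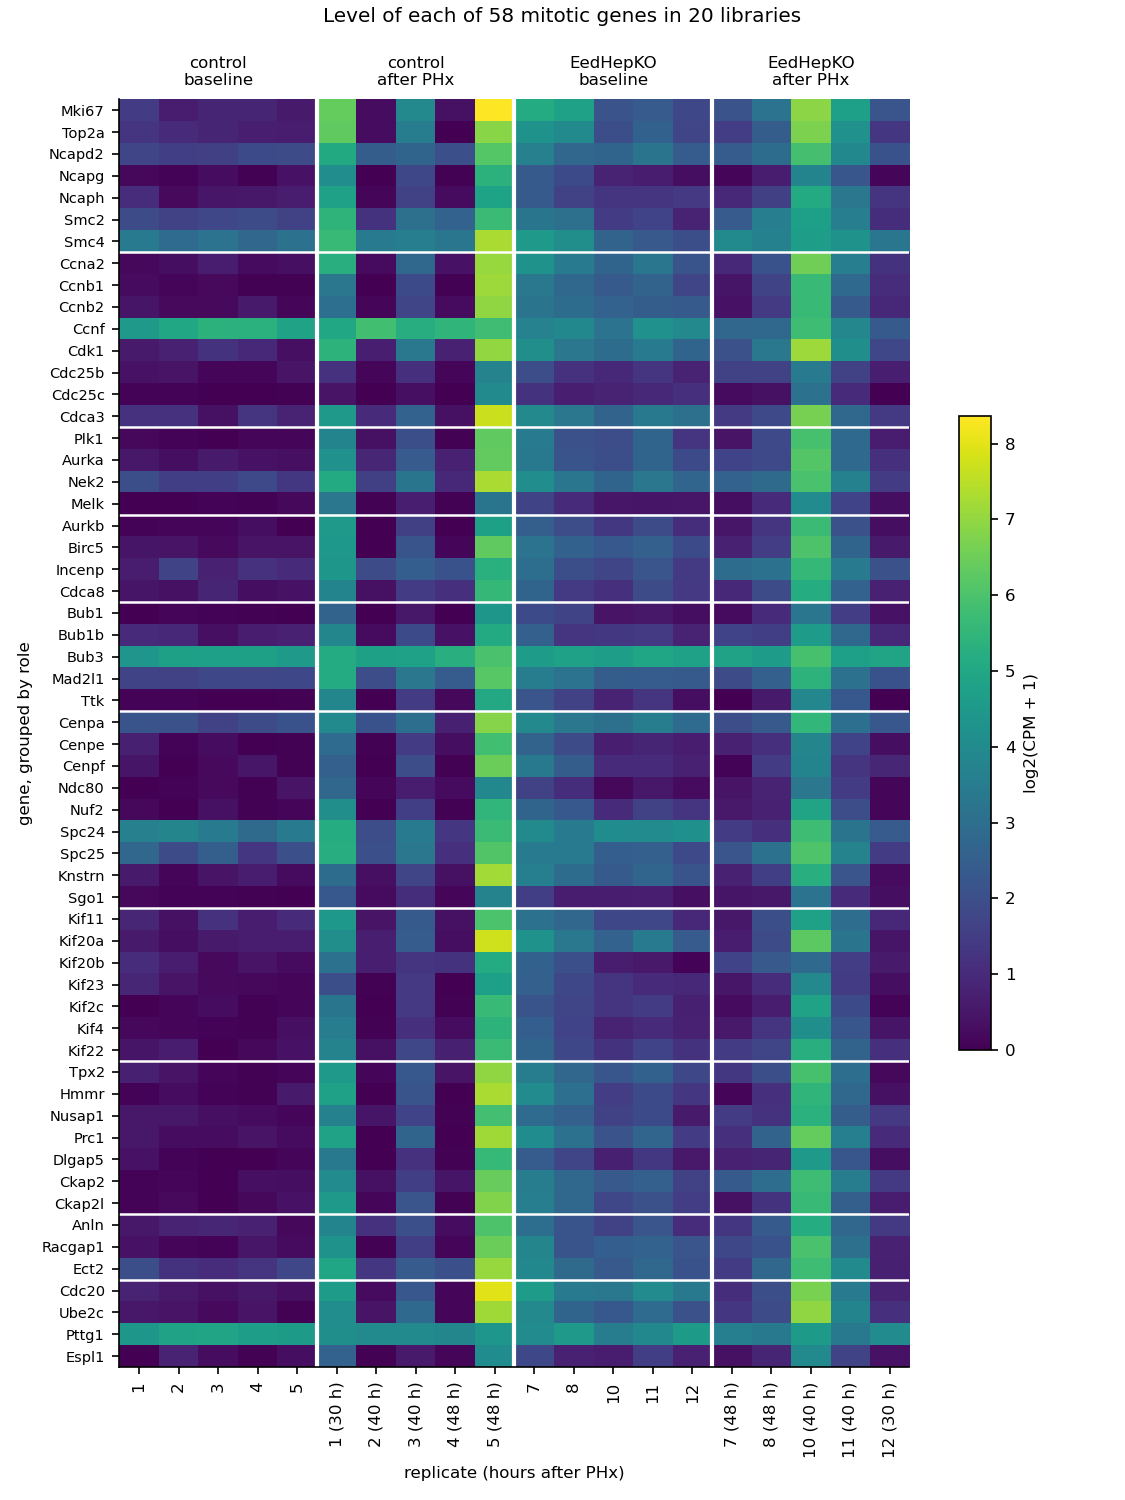
Level of each of the 58 genes (rows, grouped by role between white lines) in each of the 20 libraries (columns, replicate with hours after PHx), as log2(CPM + 1). WT replicate 5 at 48 h, EedHepKO replicate 10 at 40 h and WT replicate 1 at 30 h are the brightest columns, the EedHepKO baseline columns are brighter than the WT baseline columns, and Bub3 and Pttg1 are at 9.31 CPM or more in every column.

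The 2 WT libraries with the most mitotic mRNA differed in which genes they held. Each time point here is 1 mouse, so the ratios describe these libraries and have no test. From 30 h (replicate 1) to 48 h (replicate 5) the CPM ratio of the 58 genes ran from 0.956 to 43.4, with a median of 4.03 and 57 ratios above 1. Genes of chromosome structure had a median ratio of 2.10 and those of the checkpoint 2.43. The spindle microtubule-binding genes had 5.34, within 4.78 to 5.95, and the cyclin and entry genes 9.65. The lowest and highest genes are named after their values were seen. Melk, a kinase, had 8.98 CPM at 30 h and 8.59 CPM at 48 h, and Ncaph, a condensin subunit, 26.3 and 27.6 CPM. Cdc25c, the phosphatase that activates Cdk1, went from 0.349 CPM (8 reads) to 15.1 CPM (441 reads). Knstrn, a kinetochore and spindle protein, went from 6.85 to 145 CPM, Cenpf from 4.97 to 88.5 CPM and Ccnb2 from 7.24 to 126 CPM.

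**Figure D4:**
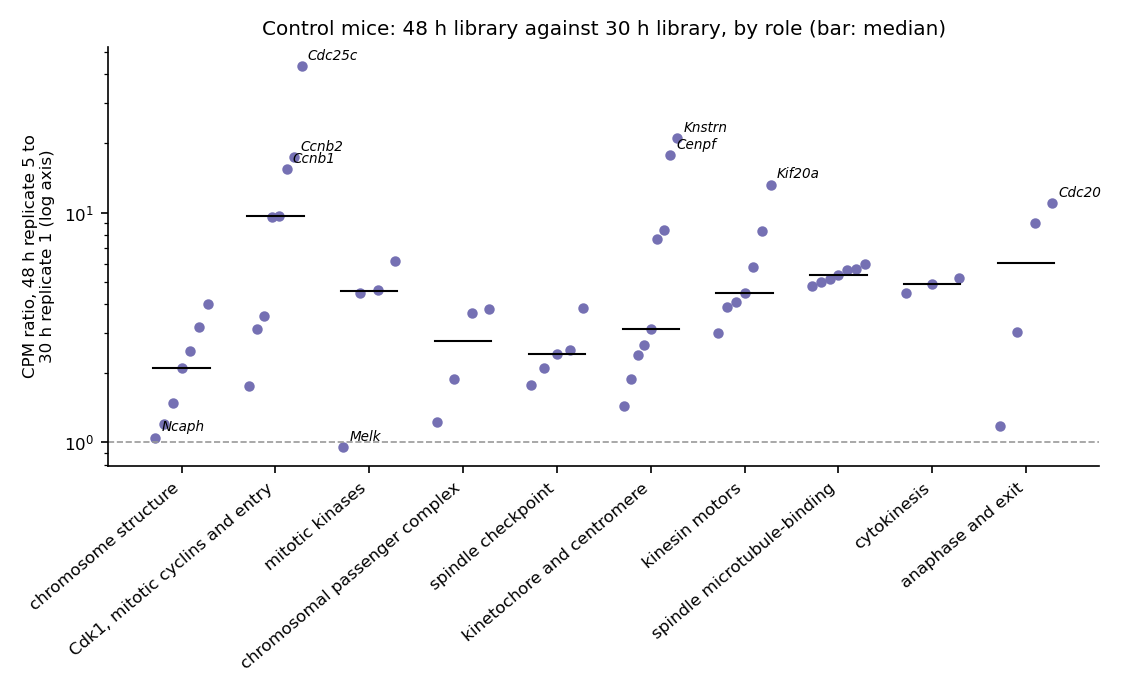
Ratio of the level in WT replicate 5 (48 h) to that in WT replicate 1 (30 h) for each gene (points, log axis) by role, with the median of each role as a bar and a dashed line at 1. Chromosome structure and checkpoint genes sit lowest (medians 2.10 and 2.43) and the cyclin and entry genes highest (9.65), with Cdc25c at 43.4.

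Replication genes ran the other way between the same libraries. They summed to 2489 CPM at 30 h and 1064 CPM at 48 h, and 39 of the 42 had a ratio under 1 (median 0.467). The mitotic sum was 0.478 times the replication sum at 30 h and 4.56 times at 48 h. In EedHepKO replicate 10 at 40 h both were high, at 2667 and 2112 CPM, a ratio of 1.26. The mice differ in time, in genotype or in both. Over all 20 libraries the ratio ran from 0.299 (EedHepKO replicate 12 at 30 h) to 4.56.

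**Figure D5:**
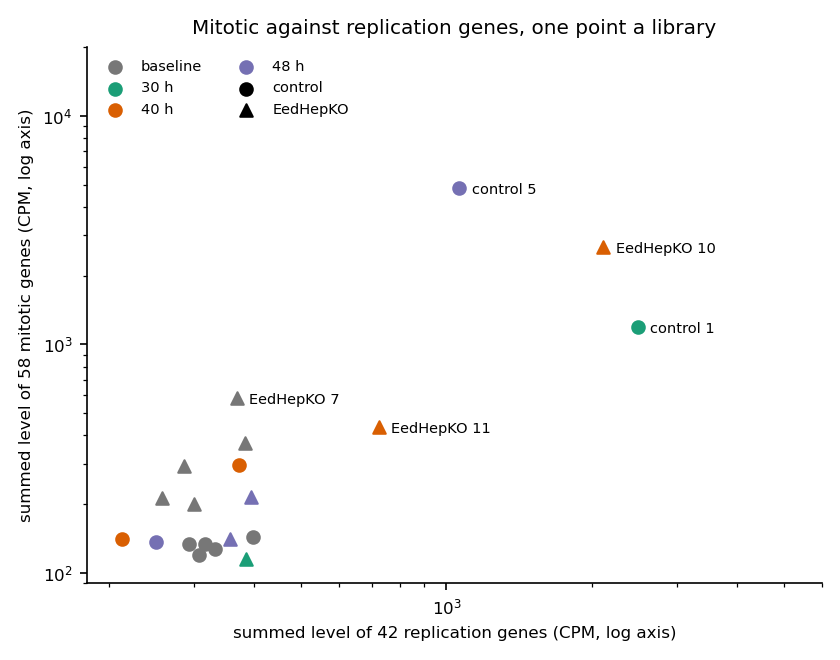
Summed level of the 58 mitotic genes against that of 42 replication genes, 1 point per library (CPM, both axes log), circles for WT and triangles for EedHepKO, coloured by time. WT replicate 1 (30 h) lies far to the right at 2489 CPM of replication mRNA, WT replicate 5 (48 h) far above at 4853 CPM of mitotic mRNA, and the EedHepKO baseline triangles above the WT baseline circles at like replication levels.

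In EedHepKO mice the level after PHx was lower than baseline in 3 of 5 mice. The 58 genes summed to 114.8 CPM at 30 h (replicate 12), 2667 and 436.4 CPM at 40 h (replicates 10 and 11), and 140.2 and 214.5 CPM at 48 h (replicates 7 and 8). Against its own baseline, replicate 7 was lower for 57 of 58 genes, replicate 8 for 46 and replicate 12 for 46. Replicate 10 was higher for all 58 and replicate 11 for 48. The 3 mice that ended lower had the 2 highest baseline sums, 582.9 and 369.6 CPM, and the lowest, 200.5 CPM (replicate 12). Of the 58 genes, 54 in replicate 8, 39 in replicate 7 and 31 in replicate 12 lay above every WT baseline library. The sum in replicate 12 lay below every WT baseline sum. A share over all genes is not given for such single-library counts.

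For this contrast 1 gene of 58 was called higher and 0 lower, at a background of 17.5% called higher. It was Incenp (log2 fold change 2.05 ± 0.75 SE, adjusted p = 0.046), at 7.17, 3.0, 2.38, 3.61 and 1.69 CPM at baseline and 3.22 at 30 h, 46.3 and 9.98 at 40 h, and 6.8 and 7.71 at 48 h CPM after PHx. The median log2 fold change over the 58 genes was 1.27, and no gene had all 5 libraries above all 5 baseline libraries (background 6.19%). The highest values were those of Ncaph (log2 fold change 2.13 ± 1.13 SE, adjusted p = 0.156), Ube2c (log2 fold change 2.10 ± 1.33 SE, adjusted p = 0.233) and Aurkb (log2 fold change 2.09 ± 1.36 SE, adjusted p = 0.247). The lowest were those of Pttg1 (log2 fold change -0.31 ± 0.24 SE, adjusted p = 0.327), Spc24 (log2 fold change -0.08 ± 0.86 SE, adjusted p = 0.949) and Cenpf (log2 fold change -0.01 ± 1.35 SE, adjusted p = 0.998). The direction rested on replicate 10: without it the median was -0.56 and 3 genes were called lower. Incenp was not called without baseline replicate 8, 10, 11 or 12 or without replicate 8 after PHx (0 called), nor in the 18 libraries of the paired mice, where 0 were called with the mouse as a replicate block (median -0.09) and without it (median 1.27).

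Single genes showed replicate 10 apart from the rest. Cdc20 in EedHepKO stood at 0.757 at 30 h, 101 and 9.9 at 40 h, and 1.14 and 2.99 at 48 h CPM. Kif20a had 0.379 at 30 h, 76.1 and 8.31 at 40 h, and 0.569 and 2.72 at 48 h CPM and Mki67 3.65 at 30 h, 119 and 25.3 at 40 h, and 3.42 and 8.17 at 48 h CPM. In each the 40 h library of replicate 10 was the highest of the 5. Ccnb1 had 1.09 at 30 h, 49.4 and 6.28 at 40 h, and 0.39 and 2.31 at 48 h CPM, Ccnb2 0.947 at 30 h, 48.7 and 4.11 at 40 h, and 0.33 and 1.65 at 48 h CPM. Cdk1 had 2.46 at 30 h, 139 and 17.1 at 40 h, and 3.21 and 9.16 at 48 h CPM. Plk1 had 0.568 at 30 h, 59.7 and 6.2 at 40 h, and 0.36 and 2.57 at 48 h CPM. For the last 4 genes the 30 h library and replicate 7 at 48 h held the lowest values after PHx. Birc5 had 0.521 at 30 h, 64.8 and 5.53 at 40 h, and 0.689 and 1.89 at 48 h CPM, Ckap2l 0.568 at 30 h, 48.7 and 4.81 at 40 h, and 0.30 and 1.32 at 48 h CPM. Ect2 had 0.663 at 30 h, 53.1 and 14.6 at 40 h, and 1.8 and 5.84 at 48 h CPM. Smc4 had 8.81 at 30 h, 24.8 and 18 at 40 h, and 15.1 and 11.8 at 48 h CPM. Bub3 stayed between 23.6 and 28.4 CPM outside replicate 10, at 28.4 at 30 h, 59.4 and 25.4 at 40 h, and 26.9 and 23.6 at 48 h CPM. Spc24 had 4.31 at 30 h, 53.8 and 8.23 at 40 h, and 1.71 and 1.23 at 48 h CPM, and its 30 h, 40 h replicate 11 and 48 h values lay below all 5 EedHepKO baseline libraries.

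Between the genotypes after PHx, 0 genes were called higher and 1 lower in EedHepKO, where 8.2% of all genes were called lower. The gene was Ccnf (log2 fold change -1.42 ± 0.51 SE, adjusted p = 0.0468), with 30.9 at 30 h, 56.2 and 36.3 at 40 h, and 43.4 and 54.2 at 48 h CPM in WT and 4.17 at 30 h, 53 and 13.6 at 40 h, and 5.72 and 5.86 at 48 h CPM in EedHepKO. Replicate 10 lay within the WT range and the other 4 EedHepKO libraries below it. Ccnf was no longer called without any one of the EedHepKO replicates 7, 8, 11 and 12 or the WT replicates 2, 3, 4 and 5 (0 called), and without EedHepKO replicate 10 the count was 16 lower. With the mouse as a random block in limma voom Ccnf was called (-2.12, adjusted p = 0.00171). No gene of the 58 had all EedHepKO libraries below all WT libraries (background 2.97%). The median log2 fold change was -0.81, beside -0.01 over all genes. It was 0.91 without WT replicate 5, -2.67 without EedHepKO replicate 10 and 0.11 by limma voom, with or without the mouse as a random block. The 3 lowest values were those of Cenpf (log2 fold change -2.54 ± 1.41 SE, adjusted p = 0.203), Cenpe (log2 fold change -1.91 ± 1.27 SE, adjusted p = 0.289) and Hmmr (log2 fold change -1.88 ± 1.48 SE, adjusted p = 0.38), and the highest Aurkb (log2 fold change 0.19 ± 1.30 SE, adjusted p = 0.929), Cdc25b (log2 fold change 0.16 ± 0.91 SE, adjusted p = 0.917) and Incenp (log2 fold change 0.08 ± 0.72 SE, adjusted p = 0.95). All 3 of the lowest turned positive without WT replicate 5, and all 3 of the highest negative without EedHepKO replicate 10. Without the 40 h libraries, a choice made after seeing the data, 55 genes were called lower, with no share of all genes given for that setting.

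The difference between the PHx responses, EedHepKO minus WT, had a median log2 value of -4.20 over the 58 genes, and 57 of the 58 values were negative. By edgeR none passed the threshold, at a background of 0.389%, although 38 had an unadjusted p under 0.05. DESeq2 called 5 lower. The smallest adjusted p among the 58 was 0.182. The lowest values were Ccnb1 (log2 fold change -7.00 ± 2.33 SE, adjusted p = 0.198), Ttk (log2 fold change -6.94 ± 2.46 SE, adjusted p = 0.223) and Hmmr (log2 fold change -6.84 ± 2.44 SE, adjusted p = 0.224), and the highest Pttg1 (log2 fold change 0.32 ± 0.34 SE, adjusted p = 0.747), Ccnf (log2 fold change -0.15 ± 0.71 SE, adjusted p = 0.956) and Bub3 (log2 fold change -0.31 ± 0.35 SE, adjusted p = 0.766). The baseline levels, higher in EedHepKO for 56 of 58 genes, enter this contrast with a minus sign. Without EedHepKO replicate 10 the count was 32 lower and the median -6.56. Without WT replicate 5 none was called, 4 had an unadjusted p under 0.05 and the median was -2.30. The WT and EedHepKO responses share no libraries.

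A second fit gave each genotype and time its own mean, with 2 mice at 40 h and 2 at 48 h. At 40 h EedHepKO was called higher than WT for 3 genes and lower for none (8.61% of all genes were called higher): Cdca8 (4.26), Ncapd2 (2.87) and Ckap2 (4.84). At 48 h 25 genes were called lower and none higher (10.7% of all genes were called lower), with values from -0.96 (Bub3) to -6.85 (Hmmr), the cyclins Ccna2 (-4.98), Ccnb1 (-5.66) and Ccnb2 (-5.96) among them. The median moved from 3.90 at 40 h to -4.11 at 48 h. These counts turned on single mice. Leaving out 1 mouse leaves an arm of 1 library, which is assumed to vary like the other groups. At 40 h, 1 gene was called lower without EedHepKO replicate 10 and none without WT replicate 2. At 48 h, 1 was called lower without WT replicate 5, without EedHepKO replicate 7 or without EedHepKO replicate 8, and 55 without WT replicate 4. The median at 48 h was 2.63 without WT replicate 5, so its sign changed too.

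Within WT, 0 of the 58 genes were called higher at 40 h than at baseline (background 9.81%), with 12 at an unadjusted p under 0.05 and 3 called by DESeq2. At 48 h 55 were called higher (background 11.7%), all but Pttg1, Ccnf and Spc24, and without WT replicate 5 none was higher, 1 was lower and the median went from 6.73 to -1.08. Within EedHepKO, 5 were called higher at 40 h (background 5.64%): Incenp (2.97), Ncapd2 (2.35), Ccnf (1.33), Ncaph (3.31) and Cdca8 (2.96). Without replicate 10 none was called, without baseline replicate 8, 10 or 12 only 1 was, and without baseline replicate 11 there were 2. At 48 h 2 were called lower in EedHepKO, Spc24 (-3.32) and Ccnf (-1.20), at a background of 19.5%, with none called without replicate 7 or replicate 8 at 48 h and 1 without baseline replicate 11. At 30 h there was 1 mouse per genotype, with no test. The WT mouse had 56 of 58 genes above every WT baseline library, and the EedHepKO mouse had 44 of 58 below every EedHepKO baseline library. No share over all genes is given for these 2 libraries, so the counts describe the members alone.

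In the 103 further mitotic genes fewer genes were called in EedHepKO than in WT after PHx, a difference not called for any of them by the interaction test (0 of 103; 36 at an unadjusted p under 0.05). In WT 54 were called higher (52.4%, against 11.4% of all genes) and 1 lower, among them 26 of 37 spindle and cytokinesis genes and 23 of 34 kinetochore genes, but 4 of 15 cohesin and condensin II genes and 1 of 17 anaphase-promoting complex genes. In EedHepKO 13 were called higher (12.6%, against 17.5% of all genes) and 1 lower. The 13 included Gtse1 (2.72), a spindle and p53 regulator, and Cdc25a (2.17), the phosphatase that also acts at S phase entry, and the kinetochore genes Cenpt (2.30) and Trip13 (2.11). Of the 42 replication genes 27 were called higher in WT and 7 in EedHepKO (16.7%). In EedHepKO neither gene set was thus called higher more often than all genes. After PHx the genotypes differed for 3 of the 103, 1.94% called higher and 0.971% lower against 16% and 8.2% of all genes: Cdc25a (1.82) and Fzr1 (0.66) were higher and Smc1a (-0.96) lower in EedHepKO.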

How the data were processed

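Bulk poly(A) RNA of 20 mouse liver samples was measured in 4 groups of 5 (genotype by stage), grouped by the labels. For each library the authors deposited raw read counts per Ensembl gene (46603 identifiers), not normalised. All values are whole numbers, and they sum to between 21634890 and 30461351 per library. Per the design text, RNA of integrity number over 8 went into TruSeq libraries sequenced paired-end, reads were trimmed with fastp 0.20.0 and aligned to mm10, and uniquely mapped reads were counted. The submitters' processing notes name Trimmomatic 0.36 and FastQC 0.11.5 instead. The aligner, counter, strand setting and annotation release are not given in the sources used here. Without strand, reads of overlapping genes cannot be told apart, and in GENCODE M21 the exons of 11 of the 58 genes overlap another protein-coding gene (Ncapg, Ccna2, Cdc25b, Cdc25c, Cdca8, Kif20a, Kif4, Nusap1, Prc1, Cdc20 and Ube2c).

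The members and gene lists were chosen with earlier results of these data known. Counts were fitted with edgeR 4.0.16 in R 4.3.3 (TMM, filterByExpr on the 4 groups, glmQLFit and glmQLFTest, two-sided), with Benjamini-Hochberg adjustment over 14661 genes and a threshold of 0.05. The first fit had 4 group means and the second 8 genotype-by-time means. The standard error of a fold change is its size divided by the square root of F. The test was run on simulated counts with the same dispersion for every gene and changes in the EedHepKO baseline group only. That simulation does not cover the wide spread between libraries after PHx. DESeq2 1.42.0, limma 3.58.1, other scalings and filters, a replicate block and leaving out libraries were the alternatives. The alternatives without the 40 h or the 48 h libraries, limma voom with no mouse term, and the 18 paired libraries with no mouse term, were added after seeing the data. Same-mouse numbers come from the labels for 9 mice. The residuals of the 2 libraries of a mouse correlated at -0.055 to 0.152, and those of different mice at -0.234 to 0.259. Per library, 3 counts are the upper limit that a count of 0 allows. Counting intervals are exact (conditional binomial, 95%) and cover counting error only.

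In each of the 10 roles the gene with the highest mean CPM per kb of merged exon, and Mki67, Ccnb1 and Cdk1, are given in every library. The 3 highest and 3 lowest log2 fold changes of each of the 5 main contrasts, and all genes called where fewer than 5 were, are given with their test. Genes named for a ratio between single libraries were chosen after their values were seen.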

Additional observations from a re-analysis of the deposited data

Results flagged for a closer look

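In a group of 5 a library stood apart when its gap to the next value exceeded 0.71 of the group's range, which chance alone gives in about 1 of 20 groups. After PHx this held in WT for replicate 5 (48 h) and in EedHepKO for replicate 10 (40 h), and at baseline in few genes. In WT after PHx 36 of the 58 genes stood apart in this way and in EedHepKO 53, against 5 and 6 at baseline in WT and EedHepKO.

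The summed level of the 58 genes was 4853 CPM in WT replicate 5 after PHx. In the same library Mki67 stood at 328 CPM, Smc4 at 155, Ccnb1 at 139, Ccnb2 at 126 and Plk1 at 78.9 CPM. Birc5 stood at 79.7 CPM, Kif20a at 217, Ckap2l at 109.8, Ect2 at 134 and Cdc20 at 254 CPM. These were 10 of the 13 genes given in every library.

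The summed level was 2667 CPM in EedHepKO replicate 10 after PHx. There Mki67 stood at 119 CPM, Ccnb1 at 49.4, Ccnb2 at 48.7, Cdk1 at 139 and Plk1 at 59.7 CPM. Birc5 stood at 64.8 CPM, Bub3 at 59.4, Spc24 at 53.8 and Kif20a at 76.1 CPM. Ckap2l stood at 48.7 CPM, Ect2 at 53.1 and Cdc20 at 101.0 CPM. These were 12 of the 13, all but Smc4.

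In resting WT liver 3 of the 13 genes had a library apart: Mki67 highest in replicate 1 (1.76 CPM, 27 reads), Birc5 lowest in replicate 3 (0.154 CPM, 3 reads) and Kif20a lowest in replicate 2 (0.250 CPM, 5 reads).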

How the results depend on the processing

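Values are numbers of the 58 genes called unless said otherwise, and the share of all genes called in each setting is not given beside them. EedHepKO against WT at baseline (5 higher) gave 30 higher with DESeq2, 29 higher with library size alone, 47 (45 higher, 2 lower) with only the 10 samples compared, 0 with the replicate block as a random effect (limma voom), and 0 to 3 when 1 library was left out. The settings without the 40 h or the 48 h libraries were chosen after seeing the data. The same contrast gave 40 (39 higher, 1 lower) without the 40 h libraries and 34 higher without the 48 h libraries. WT after PHx against baseline (53 higher) gave 24 (23 higher, 1 lower; 27 genes passed the filter) with only the 10 samples compared, 1 with the replicate block over the 9 paired mice, and 32 to 54 when 1 library was left out. The same contrast in EedHepKO (1 higher) gave 0 with no filter and 0 with the replicate block, 0 to 3 when 1 library was left out, and 3 lower without the 40 h libraries. EedHepKO against WT after PHx (1 lower) gave 0 with library size alone, with no filter, with only the 10 samples compared, without the 30 h and without the 48 h libraries, 55 lower without the 40 h libraries, and 0 to 16 when 1 library was left out. The difference of the responses (0) gave 5 lower with DESeq2, 53 lower without the 40 h libraries and 0 to 32 when 1 library was left out. With the block, 1 of the 53 calls in the WT response was left (Dlgap5), and Incenp was no longer called in EedHepKO. That fit also leaves out WT mouse 1. The same 18 libraries with no mouse term, tried after seeing the data, gave 43 in WT and 0 in EedHepKO. It moved no other count of calls by over 1.5 times. The baseline fit with a random block also changed the tool, and limma voom with no mouse term, tried after seeing the data, gave 0 as well.

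At 40 h EedHepKO against WT (3 higher) gave 21 with DESeq2, 13 with library size alone, 38 with no filter and 0 to 2 when 1 library was left out. At 48 h (25 lower) it gave 41, 12 and 52 under the same 3 settings and 1 to 55 when 1 was left out. WT at 40 h against baseline (0) gave 3 with DESeq2 and 11 with no filter, and at 48 h (55 higher) 1 to 56 when 1 library was left out. EedHepKO at 40 h (5 higher) gave 8 with DESeq2, 9 with library size alone, 28 with no filter and 0 to 5 when 1 was left out, and at 48 h (2 lower) 1 with library size alone and 0 to 2 when 1 was left out.

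In the 5 contrasts of the pooled groups, the log2 fold changes named in the report that changed sign were of genes not called. By time, 36 of the 55 genes called in WT at 48 h against baseline and 21 of the 25 called between genotypes at 48 h changed sign without WT replicate 5, and no called gene did when any other library was left out. When 1 library was left out, those of EedHepKO against WT after PHx ran from -2.89 to 1.01 for Aurkb, -0.80 to 2.31 for Cdc25b, -1.02 to 0.94 for Incenp, -3.54 to 0.71 for Cenpe, -4.20 to 0.78 for Cenpf and -4.28 to 0.49 for Hmmr (0.11 with the replicate block as a random effect). Those of the EedHepKO response ran from -0.998 to 2.44 for Aurkb (-0.61 with the replicate block), -0.57 to 2.61 for Ube2c (-0.24 with the replicate block), -1.93 to 0.23 for Spc24 and -1.67 to 0.88 for Cenpf, and that of the difference from -1.32 to 0.0902 for Ccnf. Spc24 in the WT response was -0.55 with the replicate block. In the EedHepKO response Spc24 was 0.0760 with library size alone and 0.14 without the 30 h libraries. Cenpf was 0.0058 with DESeq2, 0.10 with library size alone, 0.0081 with no filter, 0.0041 with only the 10 samples compared and 0.23 without the 30 h libraries. Library size alone shifted the median of all genes by 0.48 at baseline and 0.38 after PHx between genotypes, and by 0.36 and 0.27 in the WT and EedHepKO responses. The cause of these changes was not tested. Fewer genes pass the filter when only the 10 samples of a contrast are used, and at baseline some pass only through the EedHepKO libraries. Genes with few WT baseline reads have imprecise fold changes.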
